A study of Mus musculus with 2 samples.

Results

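The nuclear respiratory chain genes are the protein-coding nuclear genes for subunits of respiratory complexes I to IV, taken here by symbol. The symbols begin with Ndufa, Ndufb, Ndufc, Ndufs or Ndufv, Uqcr, or Cox4 to Cox8, or are Sdha, Sdhb, Sdhc, Sdhd or Cyc1, and the assembly factors beginning with Ndufaf are left out. This rule gave 69 of 43346 mouse genes in the deposited tables, with 38 in complex I, 4 in complex II, 9 in complex III and 18 in complex IV. It uses symbols and no measured value. A further 7 matching symbols were left out because their genes are annotated as pseudogenes.

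The study measured total RNA, by sequencing, in the neural tube of the mouse embryo, the tissue that forms the brain and spinal cord. Both libraries belong to 1 group: strain B6NCrl, embryonic day 12.5, male and female embryos mixed, with no treatment. Replicate 1 came from a pool of 120 embryos and replicate 2 from a pool of 88, each with 10 ng of RNA longer than 200 nucleotides as input. The labels give the same donor number to both pools, so the spread between them is that between pools of one strain at one age. There is no second condition, and no p-value can be given for any difference below: errors are the SD of 2 libraries.

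The respiratory chain sits in the inner mitochondrial membrane. Complex I takes electrons from NADH and complex II from succinate, both pass them to ubiquinone, complex III passes them on to cytochrome c, and complex IV hands them to oxygen. Complexes I, III and IV pump protons across the membrane, and ATP synthase uses the resulting gradient. Complex II is the only one whose subunits are all encoded in the nucleus. Several subunits of complex IV exist as paralogs: a form found in most tissues and a second form known from heart and skeletal muscle, lung, or testis.

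Mouse genes received 31610805 expected counts in replicate 1 and 33530172 in replicate 2. Levels are given as TPM, a share of all transcripts that divides counts by effective length, so that levels of different genes can be set side by side. Their order then depends on the effective lengths used. The main coding transcript of Ndufc1 had an effective length of 216 of its 315 nucleotides, and that of Sdha 2801 of 2900. Genes with at least 1 TPM in each library were called detected. All 8 neural tube markers examined were detected, with Tubb3, a neuronal tubulin, at 1004 and 1030 TPM and Pax6, a progenitor factor, at 21.1 and 19.7 TPM. Markers of other cells were present too: 11 of 12 skeletal muscle markers, 4 of 7 heart markers, 6 of 7 pericyte markers, 2 of 3 liver markers and 4 of 4 erythroid markers were detected, against 0 of 2 for brown fat and 0 of 5 for testis germ cells. In bulk tissue, fewer cells of a type and less RNA per cell cannot be told apart.

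Of the 69 members, 67 were detected, and 59 had a mean of 100 TPM or more. Among all 43346 mouse genes, 15735 had a mean of 1 TPM or more and 1744 had 100 TPM or more. Among 13320 detected protein-coding nuclear genes, 1644 had a mean of 100 TPM or more. By mean TPM, 62 of 69 members lay above the median detected protein-coding nuclear gene, which stood at 21.4 TPM. Of the members, 57 were in the highest 10% of such genes, which began at 119 TPM. The members held 2.19 ± 0.0526% (SD, n = 2) of the TPM of mouse genes, but 0.777 ± 0.0250% of their counts, since most of these transcripts are short: the median effective length was 559 nucleotides. Complex I held 1.07% of gene TPM, complex II 0.0935%, complex III 0.327% and complex IV 0.702%.

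**Figure D1:**
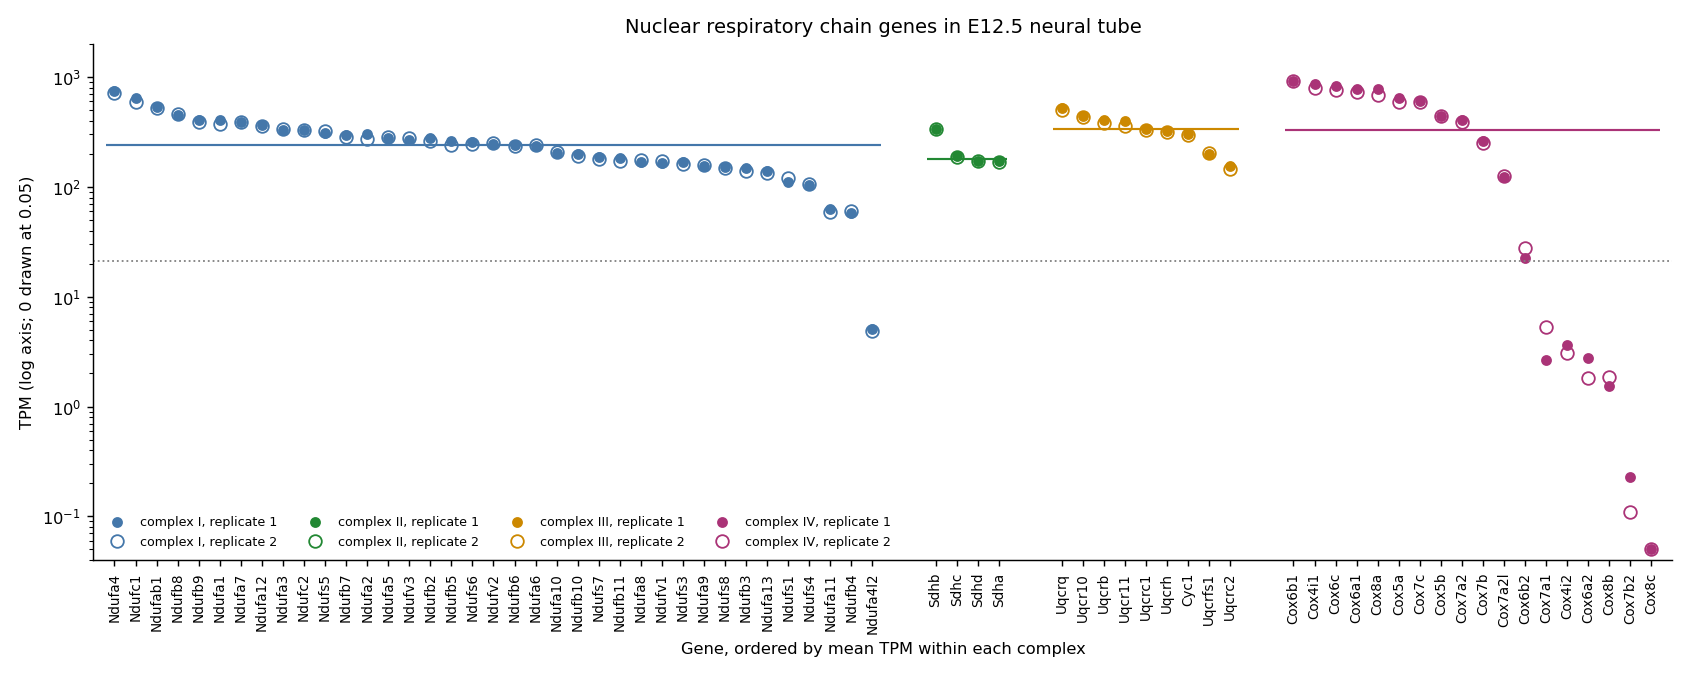
TPM of the genes (log axis; 1 of the 69 is not drawn) in replicate 1 (filled) and replicate 2 (open), ordered by mean TPM within complexes I to IV. Solid lines mark the median of each complex and the dotted line the median of detected protein-coding nuclear genes (21.3 TPM). The subunits of complexes II and III lie within a narrow range, while complex IV falls into 11 genes above 100 TPM and 7 below 30 TPM.

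The median level was 242 and 240.3 TPM in replicates 1 and 2 for complex I, 181 and 179.5 TPM for complex II, 337 and 332 TPM for complex III, and 332 and 322 TPM for complex IV. On this scale complexes I and II lay lower in both libraries than complexes III and IV. On the log2(TPM + 1) scale, the median of complex II was lower than that of complex I by a difference of -0.42 ± 0.0035 (SD, n = 2). That of complex III was higher than complex I by 0.47 ± 0.0087, and that of complex IV by 0.40 ± 0.025. Complexes III and IV differed by -0.07 ± 0.016, with complex IV the lower, and the quartile ranges of their members overlapped. The quartile ranges overlapped in each of these comparisons, so the spread among subunits was wider than the gaps between complexes, whereas those of complexes III and II did not overlap (difference 0.89 ± 0.0052).

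The complex IV median depends on which of its genes are counted. It has 7 minor paralogs, described below, and its 11 main subunits alone had a median of 639 and 597 TPM. Against complex I without its own minor paralog Ndufa4l2, these main subunits stood higher by 1.34 ± 0.058 on the log2 scale, with quartile ranges that did not overlap, and against complex III by 0.88 ± 0.055. With all 18 genes and a mean in place of the median, complex IV came out below complex I, with a difference of -1.52.

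The comparison also depends on dividing by length. In CPM, the counts of a gene scaled by the mouse-gene total of its library and not divided by length, complex II lay above complex I, by 0.85 ± 0.026 on the log2 scale, in place of below it. The subunits of complex II are encoded by long transcripts, with effective lengths from 951 nucleotides for Sdhc to 2485 for Sdha, against a median of 572 for complex I. Complex II also had the highest median CPM of the 4 complexes, 172. Complexes III and IV lay below it, by differences of -0.55 ± 0.041 and -0.58 ± 0.0040. Single genes overlapped: Uqcrc1 of complex III had a mean of 317 CPM, above 264 for Sdha. In CPM the main subunits of complex IV still stood above complex I, by 1.10 ± 0.13.

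**Figure D2:**
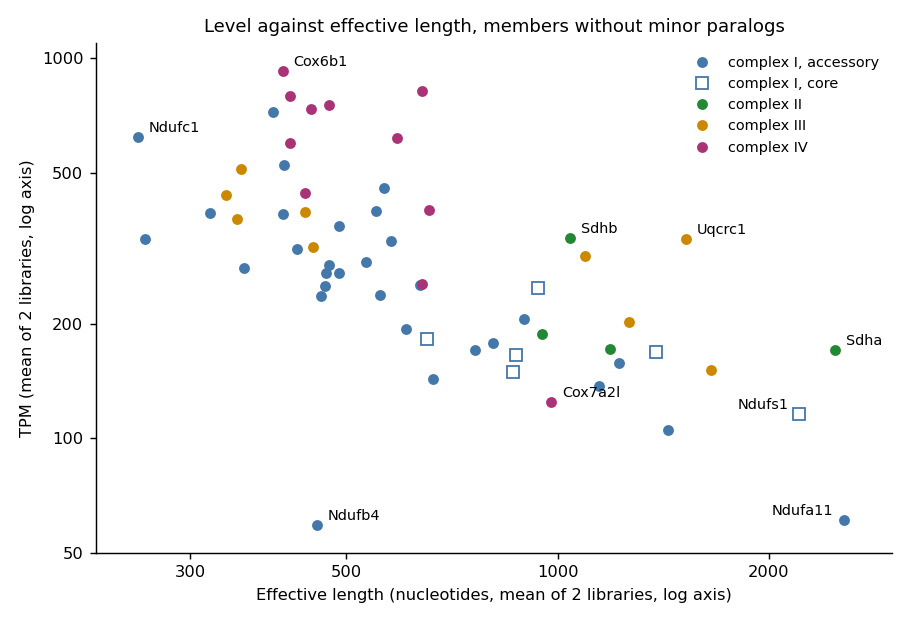
Mean TPM of the genes against their mean effective length (both log axes), without the 8 minor paralogs and 1 further gene. Core subunits of complex I are open squares and the other genes are filled circles coloured by complex. Genes under 600 nucleotides lie above 200 TPM, apart from Ndufb4 at 59.1 TPM, and the longest, Sdha and Ndufa11, lie at 171 and 61 TPM, the latter with a length that a later annotation shortens.

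Complex I is the largest complex, built around core subunits that carry the flavin, the iron-sulfur clusters and the electron path. Its highest members were Ndufa4, at 740 and 708 TPM, Ndufc1, at 640.1 and 599 TPM, and Ndufab1, at 532 and 519 TPM. Ndufa4 was named as a complex I subunit and was later placed in complex IV, and Ndufab1 is the mitochondrial acyl carrier protein, which also serves fatty acid synthesis. Ndufc1 is a small accessory membrane subunit. Moving Ndufa4 and Ndufa4l2 to complex IV, and leaving out Ndufab1 and Cox7a2l, changed the difference between complexes IV and I from 0.40 to 0.74.

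The 7 core subunits had a median of 169 and 173 TPM. The highest was Ndufv2, with 244 and 254 TPM, an iron-sulfur subunit of the module that oxidises NADH. Its partners in that module were lower: Ndufv1, which binds the flavin and NADH, had 166 and 173 TPM, and Ndufs1 had 110 and 122 TPM. Ndufs1 is the largest iron-sulfur subunit and, in TPM, the lowest of the core. In mean CPM, however, Ndufs1 had 159, above Ndufv2 with 146 and Ndufv1 with 145. The subunits of the arm that leads to ubiquinone lay between these: Ndufs7 had 187 and 178 TPM, Ndufs3 had 169 and 162 TPM, and Ndufs8 had 151 and 148 TPM. From the lowest to the highest, the core therefore spanned 2.15-fold.

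The 31 accessory subunits had a median of 264 TPM in both libraries and spanned 146-fold, from Ndufa4 to Ndufa4l2, or 10.5-fold without this pair. The core median was lower than theirs by a difference of -0.62 ± 0.022 (SD, n = 2) on the log2(TPM + 1) scale, and the quartile ranges overlapped. In CPM the order was the reverse, with the core higher by 0.69 ± 0.10. Core genes had a median effective length of 939.5 nucleotides, against 533 for accessory genes. By letter series the median was 255 TPM for the 14 Ndufa genes, 245.5 for 10 Ndufb genes, 475 for 2 Ndufc genes, 174 for 8 Ndufs genes and, in replicates 1 and 2, 244 and 254 for 3 Ndufv genes. Ndufab1 was counted in no series. Between the 3 highest and the 3 lowest genes, the other accessory subunits ran from 105 TPM for Ndufs4, a subunit of the arm that takes up NADH, to 456 TPM for Ndufb8, a membrane arm subunit. Ndufb8, Ndufb9, Ndufa1, Ndufa7, Ndufa12, Ndufa3, Ndufc2 and Ndufs5 had means from 456 down to 316 TPM. Ndufb7, Ndufa2, Ndufa5, Ndufv3, Ndufb2, Ndufb5, Ndufs6, Ndufb6, Ndufa6 and Ndufa10 followed, from 291 to 206 TPM, and Ndufb10, Ndufb11, Ndufa8, Ndufa9, Ndufb3, Ndufa13 and Ndufs4 were the lowest of them, from 194 to 105 TPM.

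The lowest members of complex I were Ndufa4l2, at 5.08 and 4.84 TPM, Ndufb4, at 57.4 and 60.9 TPM, and Ndufa11, at 62.7 and 59.3 TPM. Ndufa4l2 is a paralog of Ndufa4 known for induction in low oxygen. Ndufb4 and Ndufa11 are ordinary membrane arm subunits, and both values carry a limit. Ndufa11 received 3192 and 3135 counts, or 101 and 93.5 CPM, near the complex I median of 94 and 89.9 CPM, but its effective length was 2562 nucleotides, the longest of all members. Its 1 transcript is 2661 nucleotides long in the deposited tables but 545 in GENCODE M21, so its TPM rests on the longer model. Of 69 member transcripts compared in this way, it alone differed by more than 1.5 times. Ndufb4 shares its sequence with a pseudogene, as follows.

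Processed pseudogenes are copies of messenger RNA put back into the genome, and short respiratory chain genes have many. A search of annotated pseudogene transcripts, at 90% identity over at least 150 nucleotides, found 32 copies of 21 members. Only 12 copies reached a mean of 1 TPM. In 63 of 69 members the copies held under 1% of the summed level. This count includes members without a copy, but not Cox8c, which had 0 TPM and so no share. The exceptions above 10% were 2 genes, Ndufb4 and Cox7c. Next came Gm4459, a copy of Ndufab1, with 42.2 and 43 TPM.

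Gm12338, the copy of Cox7c, is shown whole because it is identical to the coding sequence of its parent, so that a read lying wholly inside it matches both. It lies at chr11:75599763-75599954 on the minus strand (GRCm38), and Cox7c, a small complex IV subunit, at chr13:86044816-86046904. Both the copy and the coding sequence are 192 nucleotides long. Capitals mark the start and stop codons:
Gm12338: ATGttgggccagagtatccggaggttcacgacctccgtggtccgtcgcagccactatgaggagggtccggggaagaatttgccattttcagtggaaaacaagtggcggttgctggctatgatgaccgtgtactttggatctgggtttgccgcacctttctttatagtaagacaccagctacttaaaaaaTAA

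Gm12338 was given 726 and 697 TPM, above Cox7c itself with 605 and 591 TPM. The order is the other way round in counts: Cox7c received 4948 and 5135 counts and Gm12338 1343 and 1338. The effective length of the copy is 93 nucleotides, against 416 for Cox7c. All 4 copies of Cox7c together held 54.6 ± 0.20% (SD, n = 2) of the summed TPM. Added up, Cox7c and Gm12338 had 1331 and 1288 TPM. The values of gene and copy rest on unlike effective lengths, so this sum is not a level of Cox7c and was not ranked against other members.

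Ndufb4 lies at chr16:37647170-37654453 on the minus strand, and its copy Ndufb4c at chr15:73809507-73809896. The copy is 390 nucleotides long and identical to the whole coding sequence of Ndufb4. It was given 258 and 273 TPM and 1493 and 1642 counts, against 533 and 556 counts for Ndufb4 itself. The copy thus held 81.8 ± 0.032% of the summed TPM, which was 315 and 334 TPM. Within Ndufb4, 80 and 85.1% of the level was given to Ndufb4-202, a transcript annotated as a retained intron, which is not coding. How the reads were truly divided between gene and copy was not tested. With the copies added to their parents, the median difference between complexes IV and I was 0.37, close to the 0.40 without them.

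**Figure D3:**
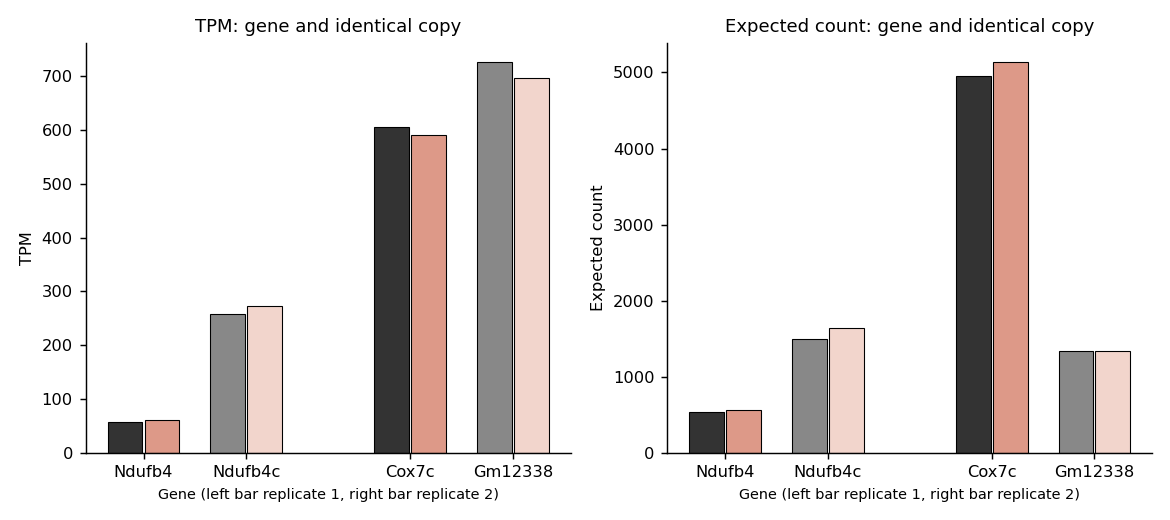
TPM (left) and expected counts (right) of Ndufb4 and Cox7c and of the pseudogenes Ndufb4c and Gm12338, which are identical to their coding sequences, in replicate 1 (left bars) and replicate 2 (right bars). Ndufb4c exceeds Ndufb4 on both scales, while Gm12338 exceeds Cox7c in TPM only.

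Complex II, succinate dehydrogenase, also works in the citric acid cycle. Sdhb, the iron-sulfur subunit, was the highest, with 338 and 334 TPM. The other subunits lay close together: Sdhc and Sdhd, the membrane anchors, had 189 and 186 TPM and 170.4 and 173 TPM, and Sdha, the flavoprotein, had 173 and 168 TPM. Sdha and Sdhd did not keep their order between the libraries. The whole complex spanned 1.97-fold.

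Complex III, the cytochrome bc1 complex, was led by small subunits in TPM. Uqcrq had 524 and 501 TPM, Uqcr10 had 446 and 429 TPM, and Uqcrb had 404 and 385 TPM. Uqcr11, Uqcrc1 and Uqcrh followed, from 378 down to 319 TPM on average. The catalytic subunits were lower: Cyc1, cytochrome c1, had 305 and 299.6 TPM, and Uqcrfs1, the Rieske iron-sulfur protein, had 199 and 205 TPM. Uqcrc2, a core scaffold protein, was the lowest with 156 and 147 TPM, less than its partner Uqcrc1 at 337 and 332 TPM. The complex spanned 3.39-fold, with all 9 genes above 100 TPM. This order depends on dividing by length. In mean CPM, Uqcrc1 (317), Cyc1 (206), Uqcrfs1 (159) and Uqcrc2 (156) stood above Uqcrq (113), Uqcrb (107) and Uqcr10 (91.7).

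Complex IV, cytochrome c oxidase, held the highest members of the whole set. Cox6b1, a subunit that faces the intermembrane space, had 924 and 926 TPM. Cox4i1, a regulatory subunit, had 859 and 787 TPM, and Cox6c 830 and 763 TPM. Cox6a1, Cox8a and Cox5a followed with means of 756, 735 and 618 TPM, and Cox5b, which binds zinc, had 438 and 446 TPM. Of its main subunits, Cox7b was low with 259 and 252 TPM, and Cox7a2l, which joins complexes III and IV in supercomplexes, was the lowest with 124 and 124.5 TPM.

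The paralog families were dominated by the form known from most tissues. In each of 7 families the ubiquitous form led in both libraries, and the 8 minor paralogs had a median of 2.73 and 2.47 TPM. Cox6a1 and Cox6a2 show the pattern. Cox6a1 (chr5:115345642-115348981, minus strand) had 780 and 732 TPM, and Cox6a2 (chr7:128205435-128206387, minus strand), the heart and skeletal muscle form, had 2.79 and 1.82 TPM. The former was higher by 341 ± 86.5-fold (SD, n = 2), and the latter held 0.302 ± 0.077% of the family's TPM from 31 and 21 counts.

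A coding stretch of 90 nucleotides from each gene is shown, chosen as the in-frame stretch without gaps that had the most identical bases. It covers bases 235 to 324 of the coding sequence of Cox6a1 (339 in all) and bases 190 to 279 of that of Cox6a2 (294 in all). Capitals mark the 19 bases that differ, and 71 are identical:
Cox6a1: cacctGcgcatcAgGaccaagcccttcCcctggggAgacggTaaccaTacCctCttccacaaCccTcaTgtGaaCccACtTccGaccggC
Cox6a2: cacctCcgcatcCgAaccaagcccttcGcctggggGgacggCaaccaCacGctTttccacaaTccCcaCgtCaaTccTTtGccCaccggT

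Over this stretch the identity was 78.9%, against 100% for the pseudogenes above. In other pairs, the best aligned segment of the transcripts had 68.9% identity over 344 nucleotides for Cox4i1 and Cox4i2 and 77.3% over 88 for Cox6b1 and Cox6b2. It had 71.1% over 142 for Cox7a1 and Cox7a2, and 78.8% over 132 for Ndufa4 and Ndufa4l2. For the remaining pairs, such as Cox7b and Cox7b2, the search reported no alignment. Exons of Cox6a2 overlap those of a gene on the other strand, and the strand setting of the counting is not known from the labels or files.

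The remaining muscle forms were as low. Cox7a1 had 2.66 and 5.30 TPM from 14 and 29 counts, against 405 and 393 TPM for Cox7a2. Cox8b had 1.53 and 1.84 TPM from 8 and 10 counts, against 783 and 687 TPM for Cox8a. Muscle RNA was present in both libraries, as the skeletal muscle markers had a median of 23 and 17.9 TPM, with Actc1, the embryonic striated muscle actin, at 131 and 88 TPM, while Ckm, muscle creatine kinase, stood at 0.15 and 0.26 TPM. The 7 heart markers had a median of 4.09 and 2.58 TPM. What part of the RNA of these paralogs came from muscle or heart was not tested.

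Forms known from lung or testis differed among themselves. Cox4i2, the lung and oxygen-responsive form, had 3.60 and 3.09 TPM from 45 and 40 counts, 0.404 ± 0.019% of its family. Cox6b2, a testis form, was the most abundant minor paralog, with 22.6 and 27.7 TPM, and held 2.64 ± 0.37% of its family. By contrast, Cox7b2, also known from testis, had 0.23 and 0.11 TPM from 2 counts and 1 count. Cox8c, a further testis form, received 0 counts in both libraries. Against a floor of 3 counts per library, Cox8c was at least 1957-fold lower than Cox8a in replicate 1 and at least 1783-fold lower in replicate 2. All 5 testis germ cell markers were under 1 TPM in both libraries.

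Ndufa4l2 held 0.680 ± 0.0025% of the summed level with Ndufa4. The Cox7a family alone had a second abundant gene, Cox7a2l, with 23.6 ± 0.34% of the family's TPM, though this gene is a supercomplex factor and not a tissue form. Pericytes of brain vessels are known to express Cox4i2 and Ndufa4l2, and the 7 pericyte markers had a median of 3.12 and 3.63 TPM, with Pdgfrb at 17 and 18.4 TPM and Higd1b at 0.08 and 0.12 TPM. The part of pericytes in these values was not tested.

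**Figure D4:**
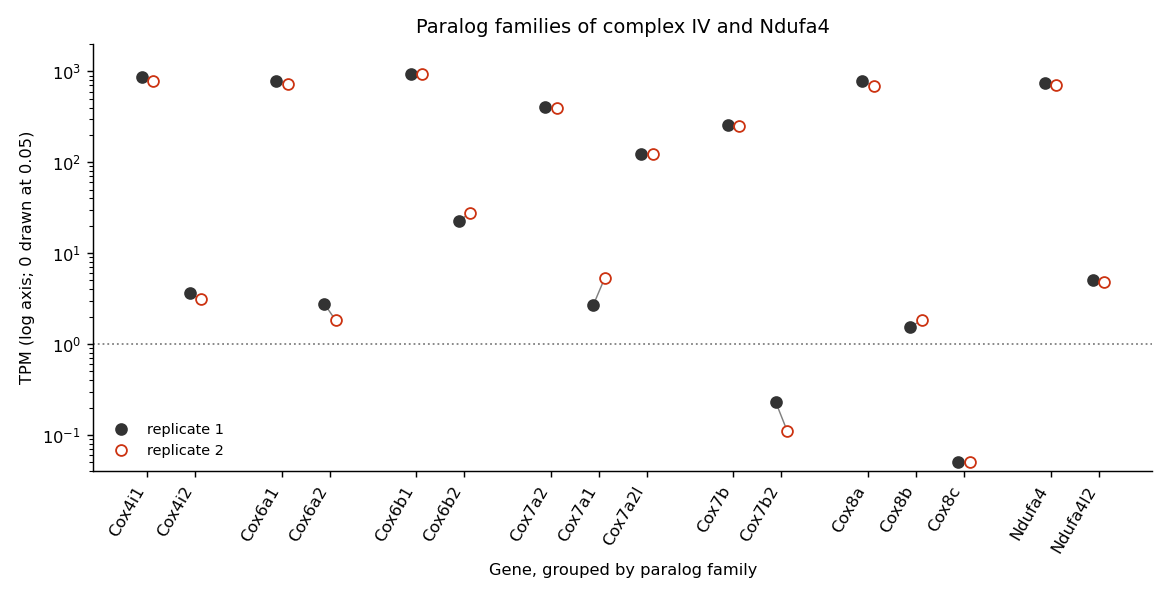
TPM (log axis, 0 drawn at 0.05) of each gene of the 7 paralog families in replicate 1 (filled) and replicate 2 (open), with a dotted line at 1 TPM. The minor paralogs lie below 30 TPM, while the ubiquitous forms lie between 252 and 926 TPM and Cox7a2l at 124 TPM.

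The transcript tables divide each gene among its annotated transcripts. Of 67 detected members, 43 have several transcripts, and in 26 of these 43 a single transcript held 80% or more in both libraries. Cox6b2 alone had a different most abundant transcript in the libraries, Cox6b2-201 with 29.5% in replicate 1 and Cox6b2-205 with 20.1% in replicate 2. In 5 members more than 50% of the level was given, in both libraries, to transcripts not annotated as coding. These were Ndufa5 with a mean of 88.2%, Ndufa10 with 82.9%, Ndufb4 with 82.5%, Cox5b with 62% (61.2 and 62.7%) and Ndufab1 with 52.5%. For these genes the gene-level TPM is more than the level of coding RNA as the tables divide it.

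The pools were compared gene by gene. With a mean of 1 TPM or more, 67 members could be compared, and 0 were more than 2-fold apart on the log2(TPM + 1) scale, where 1.43% of 15735 genes were. Among genes at 100 TPM or more the count was 0 of 1744 as well, so it is not particular to the members. The median log2 difference, replicate 2 minus replicate 1, was -0.04 for the members and 0.03 for all genes. In replicate 2, 43 of 67 members were lower (64.2%), against 41.2% of all genes and 46.6% of the 1744 genes at 100 TPM or more. By complex, 22 of 38 genes were lower for complex I, 3 of 4 for complex II, 8 of 9 for complex III and 10 of 16 for complex IV. In CPM, 53 of 67 were lower, with a median of -0.06 against 0.01 for all genes, and so were 47.2% of all genes and 59.3% of those at 100 TPM or more.

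More of the members that overlap another gene were lower in replicate 2. Of the 19 members whose exons overlap those of a gene on the opposite strand, 17 were lower in replicate 2, against 26 of 48 without such overlap, or 54.2%, with a median of -0.02. The skeletal muscle markers were lower as well, 11 of 11 with a median of -0.42. The split by overlap was not planned beforehand. Overlap was examined for the members only, so no share among all overlapping genes can be set beside the 17 of 19. Neither relation was tested as the source of the difference.

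The deposited tables hold an interval around each posterior mean TPM, whose level is not stated. These intervals failed to overlap between the libraries for 8 of 67 members, where this was so for 14.3% of all genes. Of the 8, 7 were lower in replicate 2, where 4.19% of all genes were. Genes at 100 TPM or more, the level of most members, had intervals apart in 29.1% of cases, and 11.2% were apart and lower in replicate 2. Those 7 were Ndufa2, Uqcr11, Cox4i1, Cox6c, Cox6a1, Cox8a and Cox5a, so 5 of them belong to the main subunits of complex IV. Ndufs1 alone was higher, with a log2 CPM ratio of 0.05. As shares of the members, the 8 make 11.9% and the 7 make 10.4%, so the latter is close to the share among genes of like level.

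Among members with a mean of 10 TPM or more, the largest differences towards lower levels in replicate 2 were those of Cox8a, with a log2 difference of -0.19 from 783 and 687 TPM, Ndufa2, with -0.16 from 302 and 271 TPM, and Ndufb5, with -0.13 from 264 and 241 TPM. The largest in the other direction were Cox6b2, with 0.28, Ndufs1, with 0.15, and Ndufv3, with 0.09 from 264 and 281 TPM. For scale, the SD of this difference over the 1744 genes at 100 TPM or more was 0.11, a level that Cox6b2 does not reach. In CPM the log2 ratios were -0.22 for Cox8a, -0.19 for Ndufa2 and -0.15 for Ndufb5. They were 0.22 for Cox6b2, 0.05 for Ndufs1 and 0.08 for Ndufv3. Exact 95% binomial intervals, covering counting error only, included 0 for Cox6b2 (-0.07 to 0.51) and Ndufs1 (-0.0071 to 0.10). The effective length of Ndufs1 was 2263 nucleotides in replicate 1 and 2157 in replicate 2. Lower down, the minor paralogs varied most: Cox7a1 was higher in replicate 2 by 0.78 and Cox6a2 lower, with -0.43. In counts, the log2 CPM ratio of Cox7a1 was 0.97, with an exact 95% binomial interval from -0.00099 to 2.00, and that of Cox6a2 -0.65, from -1.52 to 0.20, both covering counting error only.

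**Figure D5:**
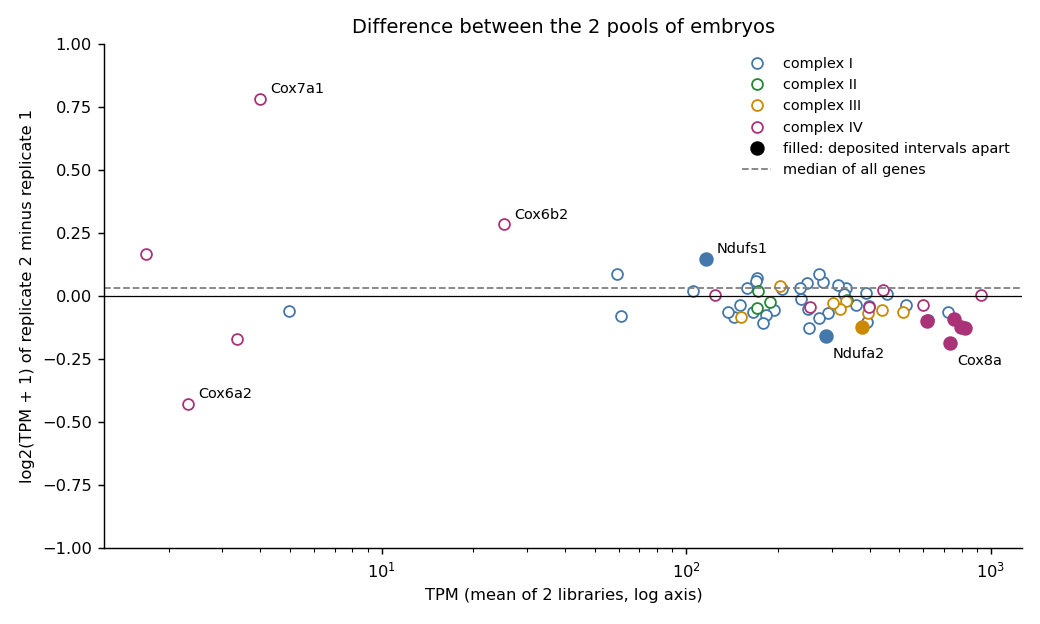
Difference between replicate 2 and replicate 1 on the log2(TPM + 1) scale against mean TPM (log axis) for the members at 1 TPM or more (1 of 67 is not drawn), coloured by complex. Filled points have deposited intervals that do not overlap, and the dashed line is the median of all genes (0.03). The points farthest from 0, Cox7a1 (0.78) and Cox6a2 (-0.43), lie at low TPM.

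Other genes of oxidative phosphorylation were read from lists. ATP synthase had all 17 genes detected, with a median of 453 and 441 TPM, above the medians of complexes I to IV but below that of the 11 main subunits of complex IV. Its highest gene was Atp5b, the catalytic beta subunit, with 1727 and 1754 TPM, followed by Atp5h with 737 and 744 TPM, and the lowest was Atp5s with 9.80 and 10.0 TPM. Cycs, somatic cytochrome c, the carrier between complexes III and IV, had 57.9 and 61.8 TPM. In TPM it lay below every main subunit of complexes II, III and IV. In counts, not divided by length, it received 3325 and 3616, below most of these subunits but above Uqcr10 with 2989 and 2979. Cyct, the testis form, had 0.09 and 0 TPM.

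By median, the genes that build or control the chain lay lower than the members. In CPM the medians were 24.4 for assembly factors and 41.6 for regulators, against 97.9 for the members. Of 43 assembly factors, 42 were detected, with a median of 35.2 and 34.1 TPM. Uqcc2 led with 265 and 254 TPM, above the complex I median of 242 and 240 TPM. Coa3 followed with 175 and 167 TPM, and Pet117 was the lowest with 1.93 and 0 TPM. All 12 regulators were detected, with a median of 23.2 and 24.7 TPM. Tfam, which packages mitochondrial DNA, had 56.8 and 62 TPM, and Gabpb1, a subunit of the factor NRF2, 53.1 and 54.7 TPM. Ppargc1b, a coactivator, was the lowest with 1.22 and 1.47 TPM.

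The 11 mitochondrially encoded subunits of complexes I, III and IV had a median of 868 and 852 TPM. The highest, mt-Cytb of complex III, had 1754 and 1881 TPM, and mt-Nd1 of complex I had 1639 and 1655 TPM. The lowest, mt-Nd4l, had 22.2 and 107 TPM.

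Promoter windows were available from the RefSeq table (GRCm38.p6) for 54 of the 69 members, each running from 250 bases before to 50 after the annotated start. They were searched on both strands for the letters CGCATGCG, the centre of the NRF1 motif, CCGGAAG, an ETS motif to which NRF2 can bind, and AAGATGGC, a YY1 motif. CGCATGCG was found in 5 of 54 members (9.26%), against 4.28% of detected protein-coding genes and 2.07% of all genes with a window. CCGGAAG was found in 11 of 54 (20.4%), against 19.3% and 9.93%. AAGATGGC was found in 7 of 54 (13%), against 5.03% and 3.19%.

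All 7 AAGATGGC matches were in complex I genes, 7 of 33 with a window (21.2%), and 0 were in the 3 genes of complex II, 5 of complex III and 13 of complex IV. They are shown because they share more than the letters. Each runs in the direction of its gene, begins 23 to 39 bases after the start site, and holds the annotated start codon. These traits were examined for the 7 matches only, so whether other genes with the letters share them is not known. The windows of 30 bases are given 5′ to 3′ on the strand of the gene, with the match in capitals:
Ndufa3: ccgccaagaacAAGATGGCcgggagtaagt
Ndufa9: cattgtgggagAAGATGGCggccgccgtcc
Ndufb8: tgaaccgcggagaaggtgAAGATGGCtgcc
Ndufc1: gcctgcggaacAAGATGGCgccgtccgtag
Ndufs4: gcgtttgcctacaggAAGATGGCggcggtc
Ndufs6: aagggtcaccggcAAGATGGCggcggtgct
Ndufs7: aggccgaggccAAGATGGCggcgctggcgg

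The windows lie at chr7:3617384-3617413 (plus strand) for Ndufa3, chr6:126849097-126849126 (minus) for Ndufa9, chr19:44555393-44555422 (minus) for Ndufb8, chr3:51408915-51408944 (minus) for Ndufc1, chr13:114388045-114388074 (minus) for Ndufs4, chr13:73328433-73328462 (minus) for Ndufs6 and chr10:80249462-80249491 (plus) for Ndufs7. The levels of these 7 genes ranged from 105 TPM for Ndufs4 to 619 TPM for Ndufc1, on either side of the complex I median. A match is a run of letters and was not tested as a binding site.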

How the data were processed

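The labels name total RNA extracted with a mirVana kit and link a SMARTer Ultra Low RNA kit manual. Per the deposited read-me text, values come from transcriptome alignments with assembly mm10 and GENCODE M4; the program and strand setting are not given in the sources used here. The authors deposited expected counts, TPM and FPKM per gene and transcript, the percent of each gene held by each transcript, and bounds on TPM and FPKM, used here as a signal with no stated level. The series title marks it as superseded by another, not used here.

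Names and coordinates came from GENCODE M21 on GRCm38, which named 42462 of 43346 genes. Ratios were taken on the log2(TPM + 1) scale, a scale that understates low genes, for genes averaging 1 TPM or more, with code tested on simulated data. CPM used mouse-gene counts, and 3 counts equal 0.0949 and 0.0895 CPM. Copies were found with blastn 2.17.0; tables were made with pandas 2.3.3. Named genes are the 3 highest and 3 lowest of each complex, the core subunits, all paralog families, the largest ratios and the extremes of other lists; 1 member counted in the summaries is not reported here by name. Members and lists were chosen with earlier results of these data known, and the pseudogene search was added after seeing the data. Alternatives are in the closing section.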

Additional observations from a re-analysis of the deposited data

How the results depend on the processing

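The depth of 2 libraries limits the minor paralogs most, since Cox7b2 and Cox8c lie at or under 3 counts. No paired analysis was possible because both libraries form 1 group. Ratios between the libraries have no value with 1 library left out. Leaving out a replicate returns the value of the other, which by construction lies within the SD. Without replicate 1 and without replicate 2, in that order, complex II minus I was -0.42 and -0.41, and III minus I 0.46 and 0.48. In the same order, IV minus I was 0.39 and 0.42, core minus accessory -0.61 and -0.64, and Cox6a1 minus Cox6a2 8.02 and 7.69.

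In CPM, complex II minus I was 0.85 and core minus accessory 0.69, both reversed, as were III minus II (-0.55, from 0.89) and IV minus II (-0.58, from 0.82), while III minus I was 0.30, IV minus I 0.27 and Cox6a1 minus Cox6a2 6.96. With means over members, IV minus I reversed to -1.52, II minus I was -0.0217, III minus I 0.59 and core minus accessory -0.36. For members at 300 nucleotides or more of effective length, the values were -0.39 for II minus I, 0.49 for III minus I, 0.82 for IV minus I and -0.57 for core minus accessory. With Ndufa4 and Ndufa4l2 in complex IV and without Cox7a2l and Ndufab1, they were -0.41, 0.48 and 0.74 for complexes II, III and IV against I. With a mean of at least 1 TPM required, IV minus I was 0.80. The posterior mean TPM gave II minus I as -0.41, FPKM gave Cox6a1 minus Cox6a2 as 7.59, and a pseudocount of 0.1 gave 8.33.

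Chosen after seeing the data, adding copies to their parents gave -0.45, 0.43 and 0.37 for complexes II, III and IV against I and -0.67 for core minus accessory, and leaving out the minor paralogs gave -0.43, 0.46, 1.34 and -0.65. The cause of these shifts was not tested beyond the construction of each alternative. Detection stayed between 62 members (5 TPM) and 67, the median difference between pools between -0.07 and -0.02 and the count over 2-fold at 0 in all settings run. The -0.02 came from leaving out members with opposite-strand overlap, which was not planned beforehand. In settings that were also not planned for this count, members lower in replicate 2 numbered 26 of 48 without such overlap and 53 of 67 in CPM.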
